A study of Homo sapiens with 6 samples.

Results

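TGF-beta signalling was examined through 10 genes chosen by name, with earlier results of these data known. These were the ligands TGFB1, TGFB2 and TGFB3, the receptors TGFBR1, TGFBR2 and TGFBR3, the signal carriers SMAD2, SMAD3 and SMAD4, and the corepressor SKI. They are 10 of the 19775 genes that the array annotation names alone on at least 1 probe set, and together they have 34 probe sets, each a group of short oligonucleotides summarised as 1 signal. All 10 genes and 28 of the 34 probe sets were measured. A probe set counts as measured where the mean of 1 or more pools exceeds 70.2, which is the median signal over all arrays. Of the 10 genes, 9 were bright, which stands for a level over 458.4 (75th percentile of all values) in 1 or more pools, and TGFB3 was dim.

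The cells were WM-266.4, a line established from a metastatic human melanoma, profiled on Affymetrix HG-U133 Plus 2 arrays to ask which transcripts depend on PIR. PIR encodes pirin, a nuclear protein that holds iron and binds factors of the NFI family. In the siPIR group PIR was targeted with 4 pooled duplexes of the siGENOME product line. The siCTR group had 4 pooled non-targeting duplexes of the on-target plus line, and the NO group Oligofectamine reagent with no oligonucleotide. All cells grew in medium with 10% serum, were transfected 24 h after seeding without serum, with 200 pmol of siRNA in the siPIR and siCTR wells, and were collected 72 h later. RNA of 3 extractions was mixed into 1 pool per group, and each pool was hybridised to 2 arrays. The arrays are repeat hybridisations, so n is 1 pool per group, no test of the conditions exists, and a range over array pairs covers hybridisation error only. The duplexes within each siRNA pool were not tested singly, and siPIR and siCTR came from different product lines.

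TGF-beta ligands are secreted as inactive precursors that are cut by the protease furin and held in latent complexes until released. An active dimer binds the type II receptor TGFBR2, which phosphorylates the type I receptor TGFBR1, with TGFBR3 (betaglycan) as a co-receptor that presents the ligand. TGFBR1 then phosphorylates SMAD2 and SMAD3, which enter the nucleus with SMAD4 and act on target genes, while SKI holds these complexes in a repressed state. In normal melanocytes the pathway restrains growth, and melanoma cells often secrete the ligands while escaping that restraint.

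The knock-down itself was checked through PIR, whose signal was 392.3 and 381.5 in siPIR and between 13180 and 14153 in the controls. The melanocytic identity of the cells was visible in all pools, since the 7 melanocytic markers with a probe set of their own (MLANA, PMEL, TYR, TYRP1, MITF, SOX10 and S100B) were bright. Their summed signal was 102304 in siPIR, 98092 in siCTR and 100360 in NO. Markers of fibroblasts (1 of 6 measured), leukocytes (2 of 4), endothelial cells (2 of 4) and keratinocytes (0 of 4) were all dim, at 433 or below in every pool. The leukocyte markers summed to 382 in the siPIR pool against 229.8 (siCTR) and 250.3 (NO). CD14 made up 282.4, 150.45 and 92.15 of these sums, and its log2 differences were 0.88 and 1.64. LST1, the other measured leukocyte marker, had negative differences (-0.48 and -1.16), its siPIR arrays overlapping both controls. Below the measured range, CD3E differed by 1.58 and 1.26 and PTPRC by -0.70 and -2.45. The part of CD14 in the results was not tested. Array medians ranged from 64.2 to 74.8 over 54675 probe sets. A level in such bulk RNA does not tell fewer expressing cells from less RNA per cell.

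The receptor that starts the SMAD signal was the member that differed most. TGFBR1 was about 3.4-fold lower in the siPIR pool than in siCTR and 3.5-fold lower than in NO. The ligand TGFB1 was higher in the siPIR pool, by 1.68-fold and 2.04-fold. The other receptors, the SMADs and SKI differed from each control by log2 differences of 0.63 or less in size on their brightest probe sets. A call between pools needed a log2 difference of 1 or more in either direction (2-fold) with no overlap of their arrays.

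By this rule TGFBR1 was the 1 member called lower against siCTR, where 4.26% of the 13071 measured genes were called lower, and 0 members were called higher, against 3.75% of measured genes. Against NO, TGFBR1 was called lower and TGFB1 higher, with 5.48% and 3.67% of measured genes called in those directions. Against both controls, 1 of 10 members was called lower (3.22% of measured genes) and 0 higher (1.52% of measured genes). Both comparisons share the siPIR pool.

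**Figure D1:**
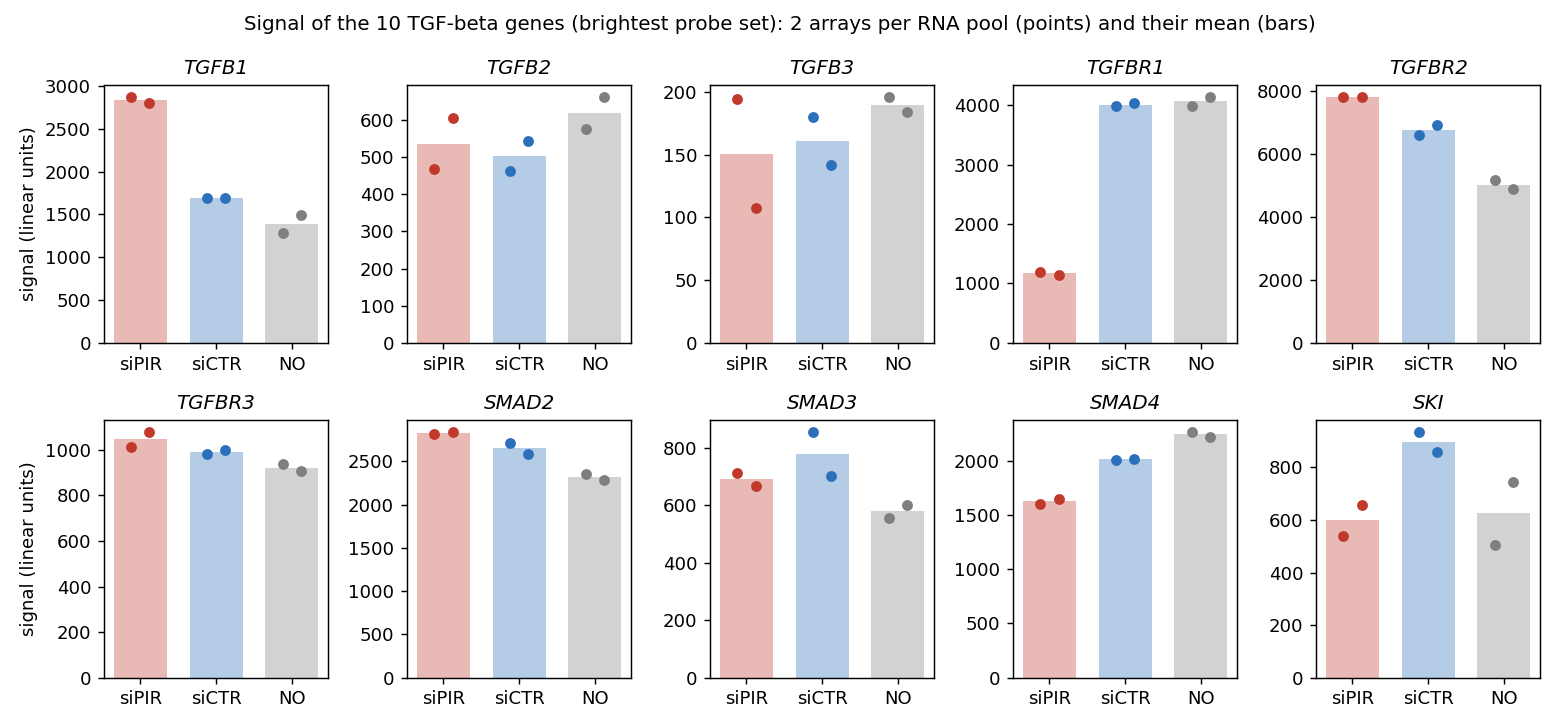
Signal on a linear scale (vertical axis, starting at 0) of the brightest probe set of each of the 10 genes in the siPIR, siCTR and NO pools, with points for the 2 arrays of a pool and bars for their mean. TGFBR1 stands at 1168 in siPIR against 4009 and 4062 in the controls, and TGFB1 at 2839 against 1692 and 1392, while the bars of the other genes lie closer together.

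Among the ligands, TGFB1 encodes the form most widely made by tumour cells. Its signal was 2869.8 and 2808 in siPIR, 1688 and 1697 in siCTR, and 1287 and 1497 in NO. Both siPIR arrays lay above all control arrays, and both siCTR arrays above both NO arrays, so the order was siPIR, siCTR, NO with no overlap. As a log2 difference this was 0.74 from siCTR, with a range of 0.73 to 0.76 over the 4 array pairs, and 1.03 from NO (0.90 to 1.15), and siCTR differed from NO by 0.28 (0.17 to 0.40). With NO replicate 1 left out the difference from NO was 0.92, which ends its call. As the mean of both TGFB1 probe sets, the dim one included, the differences were 0.11 from siCTR and 0.83 from NO, and TGFB1 was not called. Of the 13071 measured genes, 1073 were higher against siCTR and 488 higher against NO than TGFB1 was. This probe set (203085_s_at) was the 1 of its 2 probe sets that was measured. The dim one (203084_at) had signals of 60.8 and 25.0, 70.0 and 49.6, and 42.7 and 12.1 in siPIR, siCTR and NO, with overlapping arrays in both siPIR comparisons.

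TGFB2, a ligand known for roles in neural crest derivatives, was held by 4 measured probe sets. Its brightest had signals of 466 and 605 in siPIR, 463 and 544 in siCTR, and 575 and 660.5 in NO. The siPIR arrays overlapped those of both controls, while the siCTR arrays lay below the NO arrays. The log2 differences were 0.08 against siCTR (-0.22 to 0.38) and -0.21 against NO (-0.50 to 0.07). Over the 4 measured probe sets the difference ran from -0.00014 to 0.45 against siCTR and from -0.39 to -0.11 against NO. The siPIR arrays were apart from siCTR only on 220407_s_at (0.45, range 0.38 to 0.53). They were apart from NO only on 209909_s_at (-0.39, range -0.48 to -0.29). All 4 were lower in siCTR than in NO, by -0.62 to -0.29, with arrays apart on each.

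TGFB3, the remaining ligand, was dim. Its signals were 194 and 107 in siPIR, 179.8 and 142 in siCTR, and 196 and 184 in NO. The siPIR arrays spanned nearly the whole range of the other pools, and the log2 differences were -0.14 (-0.72 to 0.44) and -0.38 (-0.84 to 0.08). The siPIR pool could therefore not be placed against either control at this precision on this probe set. The other (1555540_at) was below the measured range, with signals of 3.7 and 6.3, 40.2 and 12.9, and 5.6 and 4.2. It differed by -1.49 from siCTR with arrays apart, and by 0.006 from NO with overlapping arrays.

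TGFBR1 encodes the type I receptor kinase, also known as ALK5, whose activity passes the signal to SMAD2 and SMAD3. Its brightest probe set (224793_s_at) had signals of 1189 and 1148 in siPIR, 3991 and 4028 in siCTR, and 3992 and 4132 in NO. The siPIR arrays lay far below all 4 control arrays, and the controls overlapped each other. The log2 difference was -1.77 against siCTR (-1.81 to -1.74) and -1.79 against NO (-1.84 to -1.74), a 3.42-fold and 3.47-fold lower level. Between siCTR and NO it was -0.02 (-0.05 to 0.01), with the other sign (0.10) when each array was centred on its median. Of the 13071 measured genes, 126 had a lower difference from siCTR and 159 a lower one from NO.

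The second measured probe set of TGFBR1 (206943_at) had signals of 266 and 254 in siPIR, 468 and 473 in siCTR, and 568 and 575 in NO. It too was lower in siPIR on every pair of arrays, by -0.84 against siCTR (-0.89 to -0.80) and -1.12 against NO (-1.16 to -1.08), so it missed the 2-fold limit against siCTR. Its fold was thus smaller than that of the brightest probe set, at 1.80 against 3.42 for siCTR and 2.17 against 3.47 for NO. The third probe set (236561_at) was below the measured range, with signals of 49.5 and 44.8, 41.3 and 22.4, and 39.9 and 32.9. It was higher in siPIR by 0.54 and 0.33, with arrays apart from both controls. As the mean of both measured probe sets TGFBR1 was still called, at -1.31 and -1.46, an alternative chosen after the data were seen. As the mean of all 3 it was not, at -0.69 and -0.86, and without probe sets that can bind several transcripts (suffix _s_at or _x_at) it was -0.84 from siCTR.

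For ACTB the 3' probe set read 1.13 times the 5' one in siPIR and 1.23 to 1.27 times in the controls, a ratio that grows as RNA degrades. The part of RNA quality in the TGFBR1 result was not tested. The 5 bright genes nearest to TGFBR1 in the pair of log2 differences from siCTR and NO, out of 8272 bright genes and over 3 pools, were PRR11, the carbonic anhydrase CA13, the kinetochore scaffold KNL1, the spindle protein NUSAP1 and the checkpoint kinase BUB1B. Their differences ran from -1.81 to -1.73 against siCTR and from -1.83 to -1.78 against NO, at distances of 0.019 to 0.041.

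TGFBR2, the type II receptor that binds the ligand first, had signals of 7809.5 and 7801 in siPIR, 6623 and 6919.6 in siCTR, and 5189.6 and 4876 in NO. No array of one pool overlapped another pool, in the order siPIR, siCTR, NO. The log2 differences were 0.21 against siCTR (0.17 to 0.24), 0.63 against NO (0.59 to 0.68) and 0.43 for siCTR against NO (0.35 to 0.50). Its other probe set (207334_s_at) gave 0.17 and 0.45 with arrays apart as well. The siCTR to NO step was thus larger than the siPIR to siCTR step on both probe sets of TGFBR2, the second being 0.28 against 0.17.

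TGFBR3, the co-receptor betaglycan, had signals of 1012 and 1078 in siPIR, 979 and 999 in siCTR, and 937 and 905 in NO. Its arrays did not overlap, yet the steps were small, 0.08 against siCTR (0.02 to 0.14) and 0.18 against NO (0.11 to 0.25). The second probe set gave -0.16 and -0.10 with overlapping arrays, so the probe sets of TGFBR3 did not give one direction.

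Promoters are shown for the members that passed 2-fold in a comparison. RefSeq (GRCh38.p14) start sites were found for 9 of the 10 genes, with 23 start sites in all, and there was no entry for SKI. The 250 bases upstream of the single TGFB1 start site lie at chr19:41353923-41354172 on the minus strand. Those of the first of the 8 TGFBR1 start sites in the table lie at chr9:99104863-99105112 on the plus strand. TTGGC is only a part of the full site that NFI factors recognise. Both stretches are printed 5′ to 3′ in the direction of transcription, with capitals on each TTGGC or its complement on the other strand.
TGFB1: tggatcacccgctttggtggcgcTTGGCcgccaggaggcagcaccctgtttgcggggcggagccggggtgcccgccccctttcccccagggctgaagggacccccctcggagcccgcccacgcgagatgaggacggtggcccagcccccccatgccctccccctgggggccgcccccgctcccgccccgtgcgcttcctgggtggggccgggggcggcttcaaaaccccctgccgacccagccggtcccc
TGFBR1: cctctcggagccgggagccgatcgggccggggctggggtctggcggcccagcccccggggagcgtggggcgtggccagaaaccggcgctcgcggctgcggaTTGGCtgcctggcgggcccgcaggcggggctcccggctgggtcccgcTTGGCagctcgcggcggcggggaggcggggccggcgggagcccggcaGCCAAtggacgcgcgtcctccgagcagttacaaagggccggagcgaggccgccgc

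The TGFB1 stretch held 1 TTGGC match and the TGFBR1 stretch 3, of which 2 overlap a CCAAT box (CCAAT on either strand). Over 35116 start sites, 40.8% of such stretches held at least 1 TTGGC on either strand and 32.0% a CCAAT. The GC box GGGCGG was found 6 times in the TGFB1 stretch and 0 times in the TGFBR1 stretch, and 42.6% of all stretches held one. The SMAD box CAGAC (38.0% of all) was found 0 times for TGFB1 and 1 time for TGFBR1. The TATA box TATAAA (10.7% of all), the AP-1 site TGANTCA (6.57%) and the SMAD palindrome GTCTAGAC (0.182%) were in neither. The G and C share was 76.8% for TGFB1 and 79.6% for TGFBR1, against a median of 58.0% over all stretches. The shares over all stretches count those with at least 1 match, so they do not show how usual 3 or 6 matches are. The TGFBR1 start sites differ among themselves, with 0 to 3 TTGGC matches, 0 to 6 GC boxes, 0 to 2 SMAD boxes and 40.8% to 82.0% G and C. The array does not show which start site was used, and a match of letters is no evidence of binding.

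SMAD2 and SMAD3 are the receptor-regulated SMADs that TGFBR1 phosphorylates. For SMAD2 the brightest probe set (203076_s_at) had signals of 2815 and 2840.4 in siPIR, 2716 and 2589.6 in siCTR, and 2355 and 2285 in NO. The arrays did not overlap, with log2 differences of 0.09 against siCTR (0.05 to 0.13) and 0.29 against NO (0.26 to 0.31). Its 6 measured probe sets split in direction. Those named 203075_at, 203077_s_at and 226563_at were lower in siPIR with arrays apart from both controls, by -0.16 to -0.11 against siCTR and -0.31 to -0.07 against NO. As the mean of all 6, SMAD2 differed by -0.0080 from siCTR and -0.012 from NO.

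SMAD3 had signals of 712 and 668 in siPIR, 854 and 701 in siCTR, and 557 and 601 in NO on its brightest probe set. The siPIR arrays overlapped those of siCTR and lay above those of NO, with log2 differences of -0.17 (-0.35 to 0.02) and 0.25 (0.15 to 0.35). All 4 of its probe sets were measured and all were higher in siPIR than in NO, by 0.09 to 0.98, with arrays apart on 3 of them. The largest difference came from 205397_x_at, which may bind transcripts of other genes, with 0.38 against siCTR and 0.98 against NO.

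SMAD4, the common partner that the receptor-regulated SMADs need, was lower in the siPIR pool by less than 2-fold. Its signals were 1598 and 1648 in siPIR, 2009 and 2017 in siCTR, and 2264 and 2219 in NO. The order was NO, siCTR, siPIR with no overlap, with log2 differences of -0.31 against siCTR (-0.33 to -0.28) and -0.46 against NO (-0.50 to -0.43). The other measured probe sets gave -0.30 and -0.36 (235725_at, arrays apart) and -0.34 and -0.55 (202526_at, arrays overlapping those of siCTR). The 3 measured probe sets of SMAD4 therefore lay in 1 direction in both comparisons. Those below the measured range did not, at -0.39 and -0.27 (1565703_at) and 0.96 and 1.47 (1565702_at, arrays apart from both controls).

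SKI, which recruits histone deacetylases to SMAD complexes, had signals of 540 and 657 in siPIR, 935 and 859 in siCTR, and 506 and 744 in NO. The siCTR arrays lay above all others, and siPIR and NO overlapped. The log2 differences were -0.58 against siCTR (-0.79 to -0.38), -0.04 against NO (-0.46 to 0.37) and 0.54 for siCTR against NO (0.21 to 0.88). Centring each array on its median turned the sign against NO. The dim probe set 213755_s_at had signals of 16.7 and 14.8 in siPIR, 72.4 and 17.3 in siCTR, and 106 and 135 in NO, a difference of -2.57 against NO (-2.79 to -2.34) and -0.99 against siCTR (-1.95 to -0.04). Its siCTR arrays disagreed by more than any of its other pools, and the third probe set of SKI gave 0.07 and -0.17.

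**Figure D2:**
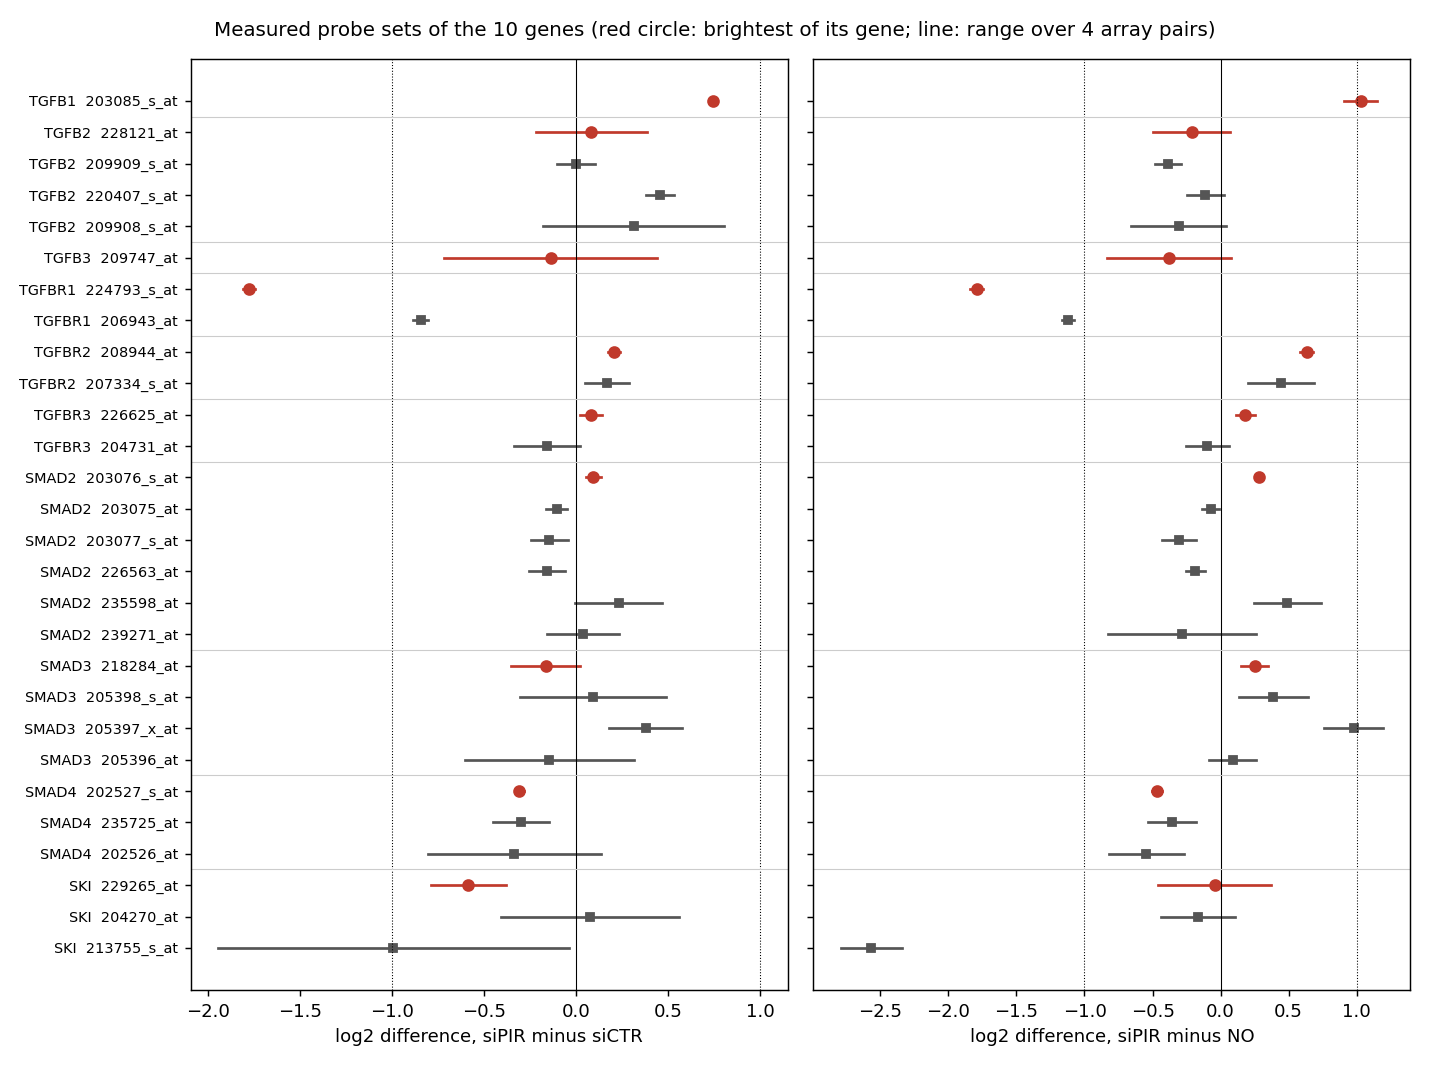
Log2 difference (horizontal axes) of siPIR from siCTR (left) and from NO (right) for the 28 measured probe sets of the 10 genes, with lines for the range over the 4 pairs of arrays and dotted lines at 2-fold. Both TGFBR1 probe sets lie left of 0 in each panel (-1.77 and -0.84, then -1.79 and -1.12), the 3 SMAD4 probe sets lie together, and those of SMAD2 spread to both sides of 0 in each panel. Those of SKI do so against siCTR, while all 3 are negative against NO.

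Over all probe sets, 1 of the 28 measured was called against siCTR, where 8.12% of the 25089 measured probe sets were called in either direction. Against NO, 4 were called (9.69% of measured probe sets), namely the pair of TGFBR1, 203085_s_at of TGFB1 and 213755_s_at of SKI. A weaker criterion, arrays of the pools apart with no limit on size, was met by 7 of 10 members against siCTR and 7 of 10 against NO. These shares lie near those of all measured genes, 66.1% and 70.4%. Against both controls in 1 direction it was met by 6 of 10 members (51.6% of measured genes), with TGFB1, TGFBR2, TGFBR3 and SMAD2 higher and TGFBR1 and SMAD4 lower. The median log2 difference of the 10 members was -0.03 against siCTR and 0.07 against NO, beside 0.05 and 0.03 over all measured genes.

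The comparison of siCTR with NO sets non-targeting duplexes against reagent alone. No member was called there, that is 0 of 10 by the 2-fold rule, against 3.51% of measured genes. Of the 28 measured probe sets 1 was called (4.13% of measured probe sets). This was 213755_s_at of SKI, at -1.57 (-2.62 to -0.52), and 204270_at of SKI gave -0.24 with overlapping arrays. On the brightest probe sets the arrays were nevertheless apart for 9 of 10 members (53.0% of measured genes), all but TGFBR1. TGFB1, TGFBR2, TGFBR3, SMAD2, SMAD3 and SKI were higher in siCTR by 0.10 to 0.54, and TGFB2, TGFB3 and SMAD4 had differences of -0.29 to -0.15. Centring each array on its median moves the median of all measured genes in this comparison from 0.01 to 0.13, which is as large as the smallest of these differences. As the mean over all probe sets the sign turned for SKI, SMAD2, SMAD4 and TGFB3. For TGFBR2 (0.43 of 0.63) and SMAD3 (0.42 against 0.25) the siCTR to NO difference made up most or more of the siPIR to NO difference. For TGFBR1 it was -0.02 of -1.79 on the brightest probe set. On its other measured probe set (206943_at) it was -0.28 of -1.12, with siCTR and NO arrays apart.

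Other genes of the pathway were taken from 7 lists that hold 91 distinct genes. Of these, 77 were measured, 6 were below the measured range and 8 were not analysed here. Against both controls 3 of the 77 were called higher and 3 lower, beside 1.52% and 3.22% of all measured genes. The lists were chosen with earlier results of these data known, so their counts are not independent of the data. For the list medians below, the median over all measured genes was 0.05 against siCTR and 0.03 against NO.

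Genes that keep the ligand latent or release it gave 1 call against both controls among 12 measured, higher in siPIR (1.52% of all measured genes). FURIN, the protease that cuts the TGF-beta precursor, had signals of 885 and 893 in siPIR, 363 and 391 in siCTR, and 264 and 296 in NO. All its siPIR arrays lay above the controls, with log2 differences of 1.23 (1.17 to 1.29) and 1.65 (1.56 to 1.74) on its only probe set. The median of the list was 0.26 and 0.44. The latent TGF-beta binding proteins LTBP3 (0.54 and 1.08, called against NO), LTBP4 (0.82 and 0.98) and LTBP2 (0.30 and 0.62) had positive differences, and the matrix proteoglycan BGN, which binds TGF-beta, negative ones (-0.86 and -0.61). The LTBP4 value against siCTR rests on siCTR arrays of 528 and 276, and it was 1.29 without siCTR replicate 1 and 0.36 without siCTR replicate 2. Other measured probe sets of LTBP3, LTBP4 and BGN reached the other sign against at least 1 control.

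The co-receptor and the partners of SMADs gave 0 calls against both controls among 11 measured, with medians of 0.05 and 0.03. ENG, the co-receptor endoglin, had signals of 1238 and 1644 in siPIR, 721 and 894 in siCTR, and 618.5 and 622.5 in NO. Its siPIR arrays lay above the controls by 0.83 (0.47 to 1.18) and 1.19 (0.99 to 1.40), called against NO, and both ENG and FOXH1 were called against both controls when siPIR replicate 1 was left out. The transcription factors SP1 (-0.52 and -0.61) and FOXH1 (-0.98 and -0.78, dim) and the coactivator SNW1 (-0.41 and -0.41) had negative differences. The FOXH1 arrays overlapped those of NO (-1.73 to 0.18), and its differences were -1.58 and -1.37 without siPIR replicate 1 but -0.39 and -0.18 without siPIR replicate 2.

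Inhibitors and corepressors gave 0 calls among 14 measured, with 10 positive against both controls and medians of 0.20 and 0.28. The inhibitory SMAD7, which TGF-beta itself induces, had signals of 1045.5 and 1209.8 in siPIR, 906 and 693 in siCTR, and 744 and 782 in NO. Its siPIR arrays lay above all control arrays, by 0.50 (0.21 to 0.80) and 0.56 (0.42 to 0.70). PMEPA1, a negative regulator induced by the pathway, differed by 0.52 and 0.85, the ubiquitin ligase NEDD4L by 0.38 and 0.61, and the corepressor TGIF1 by 0.29 and 0.34. Each of these 3 had another measured probe set of the other sign against at least 1 control.

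The activin and nodal arm, which also signals through SMAD2 and SMAD3, gave 0 calls against both controls among 10 measured. Its medians differed between the comparisons, at -0.01 against siCTR and 0.43 against NO. The ligand GDF11 differed by 0.49 and 0.81, and the type I receptor ACVR1B by 0.35 and 0.49. ACVR1C, another type I receptor, differed by -0.81 and -0.49, and by -1.43 and -1.17 on its other measured probe set. The ligand NODAL, dim, differed by -0.56 and -0.88 with overlapping arrays. NODAL was called against both controls without siPIR replicate 2 (-1.48 and -1.80) and turned sign without siPIR replicate 1 (0.36 and 0.04). Of the others, GDF11 and ACVR1B had other probe sets of the other sign. Kinases and adaptors of the branch outside SMADs gave 0 calls among 9 measured, with medians of 0.11 and 0.15. The ubiquitin ligase TRAF6 differed by 0.87 and 0.44, the kinase MAP3K7 (TAK1) by 0.41 and 0.34, its adaptor TAB2 by -0.46 and -0.28, and the polarity protein PARD6A, dim, by -0.56 and -0.99. Another probe set of MAP3K7 and of TAB2 had the other sign against at least 1 control, at differences close to 0.

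Of 20 measured genes known to rise with TGF-beta in many cell types, 2 were called against both controls. Both were higher (1.52% of all measured genes). ANGPTL4, a secreted inhibitor of lipoprotein lipase, had signals of 1848 and 1373 in siPIR, 321 and 343 in siCTR, and 254 and 195 in NO. CDKN1A, the cell cycle inhibitor p21, stood at 9040.2 and 9077 against 4200.1 and 4228 in siCTR and 3455.5 and 3568 in NO. Their differences were 2.24 and 2.81 for ANGPTL4 and 1.10 and 1.37 for CDKN1A. The other 18 were not called against both controls, and 7 of the 20 had negative differences from each. ACTA2, smooth muscle actin, differed by 0.97 and 1.12, the type I collagen chain COL1A2 by 0.64 and 0.91, and TAGLN, dim, by 0.66 and 0.75. The medians were 0.25 and 0.48. Without siPIR replicate 2 or without siCTR replicate 1 the list held 4 calls. Of the 20 genes only ACTA2 gained a call there, and the further call was of a gene outside the 20.

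Of 6 genes known to fall with TGF-beta in many cell types, 3 were called lower than both controls (3.22% of all measured genes). ID1 and ID3, inhibitors of helix-loop-helix factors that answer to BMP as well, were dim. ID3 had signals of 16.2 and 53.2 in siPIR, 181 and 228 in siCTR, and 223 and 201 in NO, and ID1 97.9 and 49.4, 208 and 168.5, and 152 and 166. In both, the siPIR arrays lay below all control arrays and differed widely between themselves. The differences were -2.55 and -2.61 for ID3 and -1.36 and -1.13 for ID1, which lost its call (-0.90 and -0.67) without siPIR replicate 2. ID3 stayed called, at -3.27 and -3.33 without siPIR replicate 2 and -1.83 and -1.89 without siPIR replicate 1. CCNA2, cyclin A2 of the S and G2 phases, differed by -1.96 and -1.84. MYC differed by 0.04 and 0.02, and ID2 by 0.23 and 0.07 (another probe set -0.76 and -1.26). The phosphatase CDC25A differed by -0.88 and -0.22 (-0.37 and 0.29 without siPIR replicate 2). Over its 3 measured probe sets the differences ran from -1.14 to -0.88 against siCTR and from -1.34 to -0.22 against NO. The medians of these 6 were -1.12 and -0.68.

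**Figure D3:**
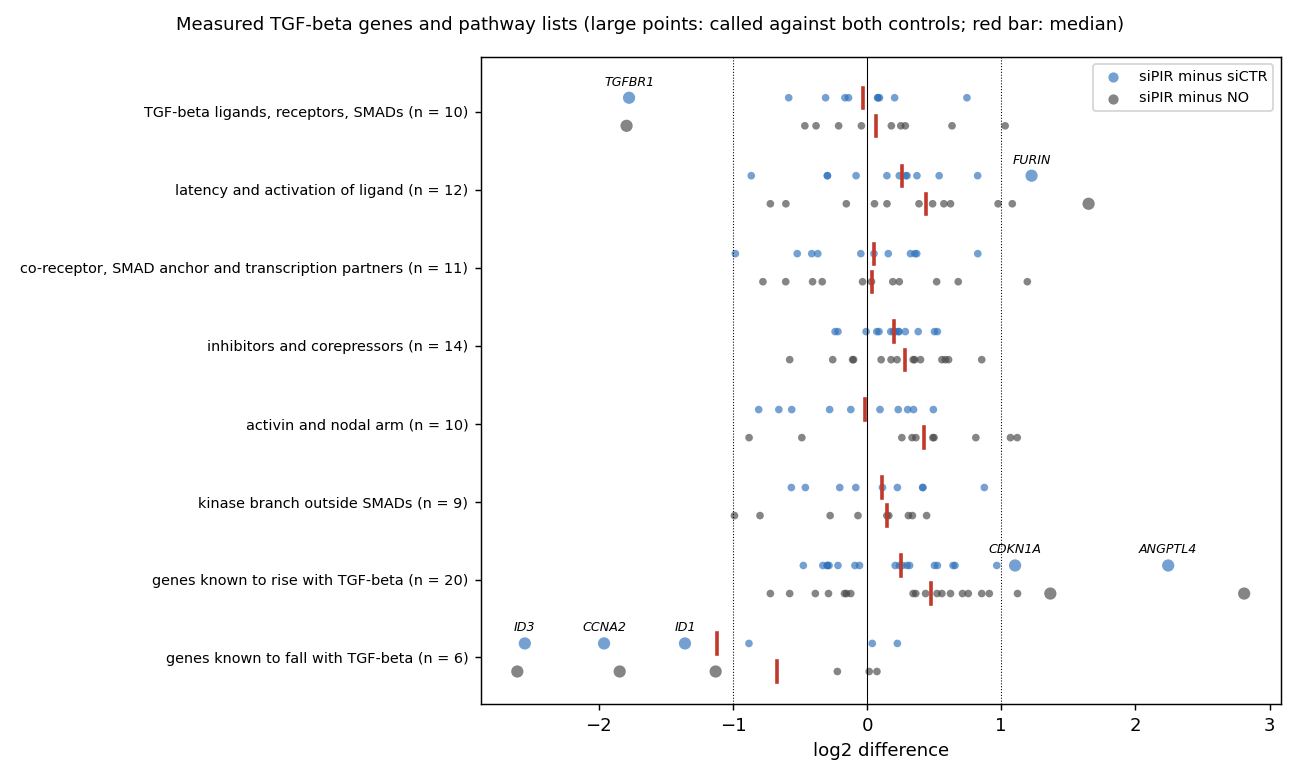
Log2 differences (horizontal axis) of measured genes by list (rows), from siCTR in blue and from NO in grey, with red bars at list medians and large, named points for genes called against both controls. TGFBR1, ID1, ID3 and CCNA2 stand left of the dotted 2-fold line and FURIN, CDKN1A and ANGPTL4 right of it, while the other genes are not called against both controls.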

How the data were processed

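Each group was 1 RNA pool on 2 arrays. The deposited intensity values (linear, 1 per probe set) were made by the authors with GCOS, the Affymetrix array software, per the submitters' processing notes, which give no version. The 2% trimmed mean of every array rounds to 500, so differences in total signal between arrays are removed. No array pair held identical values, and 0 columns were left unmatched. A pseudocount of 5.4 (10th percentile of the signals) was added before taking log2, which understates differences of dim genes, and arrays of a pool were averaged on that scale. For each gene the brightest probe set over the 6 arrays was taken, leaving out those annotated with several genes, and calls were counted over all 13071 measured genes. Symbols were checked against RefSeq through Entrez identifiers (99.9% matched). With 1 pool per group no p-value was computed, and precision is limited by how few pools and arrays there are. The rule of size was run on simulated arrays, with differences put into bright genes only and all larger than the 2-fold limit. That run does not show how the rule acts on dim genes or on differences near the limit.

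The 10 genes and the pathway lists were chosen with earlier results of these data known. Named from each list were the genes called against both controls and up to 4 others with the largest smaller difference of one sign against both. Marker lists covered melanocytic cells, fibroblasts, leukocytes, endothelial cells and keratinocytes. Alternatives changed the pseudocount, the filter, the probe set rule, the scaling, the fold limit and left out each array in turn. Python 3.11.15, numpy 2.4.6 and pandas 2.3.3 were used.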

Additional observations from a re-analysis of the deposited data

How the results depend on the processing

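The number of TGF-beta genes called (1 against siCTR, 2 against NO, 1 against both controls, 0 between siCTR and NO) was recomputed under 16 alternatives. With the mean over all probe sets of a gene it was 0, 0 and 0 for the siPIR comparisons, and without probe sets of suffix _x_at or _s_at it was 0, 1 and 0. With 1.5-fold in place of 2-fold, TGFB1 joined TGFBR1, giving 2 against siCTR and 2 against both controls, and TGFBR2 joined them against NO, giving 3. With an array left out the count against NO ran from 1 to 2, lowest without NO replicate 1, those against siCTR and against both controls stayed at 1, and that between siCTR and NO stayed at 0. TGFBR1 differences ran from -1.81 to -0.69 against siCTR and from -1.82 to -0.86 against NO. The 6 calls among the pathway lists became 3 without _x_at and _s_at probe sets (55 genes measured in place of 77), 12 at 1.5-fold, and 6 to 9 with an array left out, and ID1 was not called at 4 times the pseudocount. Of 30 differences of the 10 genes, 17 kept their sign in every alternative, and 13 turned in at least 1, none of them called. Of 32 named list genes, 11 had a measured probe set of the other sign against at least 1 control. Centring arrays on their medians moved the median of all measured genes from 0.01 to 0.13 for siCTR against NO. For siPIR it moved from 0.03 to 0.12 against NO and from 0.05 to 0.01 against siCTR. No paired analysis was possible because the replicate numbers name repeat hybridisations of 1 pool and no test was made. Signals near the lower limit of measurement, as for TGFB3, ID1 and ID3, limit those values.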
